A study of Mus musculus with 4 samples.

Results

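Cd93-gated B cells of the spleen and blood were B cells in which at least 1 unique molecular identifier (UMI, which marks one captured RNA molecule) of Cd93 was counted. They were chosen by measured counts among cells of 200 genes or more and 500 UMIs or more, with no more than 10% of UMIs from mitochondrial genes, whose leading hashtag took 80% or more of at least 20 hashtag UMIs. A cell was B-gated with at least 3 UMIs of Cd79a, Cd79b and Ms4a1 together and none of Cd3d, Cd3e, Bhlhe41, Zbtb32 or Csf1r. A member had Cd93 besides. The rule found 71 members among 2672 B-gated cells (2.66%, exact 95% interval 2.08 to 3.34%) and among 13160 kept cells of the whole series. Intervals here and below cover counting error only.

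The cells came from B6 mice bearing BeCon ovarian tumours, which received YKL-05-099, a small-molecule inhibitor of salt-inducible kinases, or its vehicle. Viable cells positive for CD45 (the pan-leukocyte surface protein) and MHC class I were sorted, tagged with hashtag antibodies that mark mouse and tissue, and pooled. Spleen and blood shared 1 droplet library, with vehicle mice 1 to 3 and treated mice 2 to 4. A spleen and a blood hashtag with the same arm and mouse number were taken as 1 animal. Every mouse bore tumour, so no comparison here has a tumour-free group. Dose, duration and the age and sex of the mice are not given in the sources used here.

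Transitional B cells are recent emigrants from the bone marrow that finish their selection in the spleen. They carry CD93 (the AA4.1 antigen) at the surface, together with high CD24 and IgM, and lose CD93 as they become follicular cells, which carry CD23 (encoded by Fcer2a) and IgD, or marginal zone cells, which carry much CD21 (encoded by Cr2). CD93 is also known on plasma cells, where it helps their persistence, and on myeloid progenitors, monocytes and endothelium. Vpreb3 encodes a chaperone of immature B cell receptors in the endoplasmic reticulum, and Cd79a one of the signalling chains of the receptor. Cd93 (ENSMUSG00000027435) lies on the minus strand at chr2:148436640-148443563 and Vpreb3 on the plus strand at chr10:75943057-75949657 in GRCm38, both protein-coding.

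The library held 14792 barcodes and 92064806 gene UMIs. Quality limits left 11513 barcodes and the hashtag rule 6741, with a median of 5987 UMIs. The hashtag rule removed 51 of 122 cells that otherwise met the gate, and these had a median of 10890 UMIs. Members had 1692 to 37822 UMIs, with a median of 6506, against 5562 in the 2601 B-gated cells without Cd93, called Cd93-0 cells below. Of the barcodes, 52 occurred in both libraries of the series, and none of those was a member.

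The gate rested on few molecules. In 62 of 71 members there was 1 Cd93 UMI, and the highest count was 5. The sum of Cd79a, Cd79b and Ms4a1 ran from 3 to 89 UMIs with a median of 22, 5 members stood at exactly 3, and 28 cells that met every other condition had 1 or 2 and fell outside. The lowest hashtag share inside the rule was 80.4% and the highest outside it 79.5%. The highest mitochondrial share inside was 9.91% and the lowest outside 12.05%.

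The markers went against the label of transitional B cells for the set as a whole, so the cells are named here by their gate. Vpreb3 had a UMI in 46.5% of members and in 46.1% of Cd93-0 cells. Members fell into 3 kinds, separated by cuts placed after the values were seen and given as a description. In 14 members Jchain, which joins IgM and IgA into polymers in antibody-secreting cells, made up at least 1% of UMIs. In 4 others the neutrophil genes S100a8, S100a9, Retnlg and Csf3r together made up at least 5%. The remaining 53 met neither. Both cuts fell in gaps, since Jchain took 1.60% or more of UMIs in the first kind and at most 0.461% in any other member, and the neutrophil genes took 7.79 to 26.9% in the second kind and at most 0.177% elsewhere.

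The 14 Jchain-rich members all came from spleen, 7 from vehicle and 7 from treated mice. They held a median of 20670 UMIs, with medians of 782 for Jchain (81 to 1749), 6673 for the kappa light chain gene Igkc and 1946.5 for the IgM heavy chain gene Ighm. The leading heavy chain constant gene was Ighm in 13 cells and Ighg2c in 1. Xbp1, a transcription factor that expands the secretory apparatus, had a median of 15 UMIs. Prdm1 (the plasma cell regulator Blimp-1) was seen in 10 of 14 and Sdc1 (the plasma cell surface protein CD138) in 10 of 14. Pax5, the B cell identity factor that plasma cells switch off, was seen in 1 of 14 and Vpreb3 in 3 of 14. The 31 Jchain-rich cells without Cd93 looked alike in these genes, with Xbp1 in 100%, Prdm1 in 58.1% and Sdc1 in 61.3% of cells, at a median of 19504 UMIs.

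**Figure D1:**
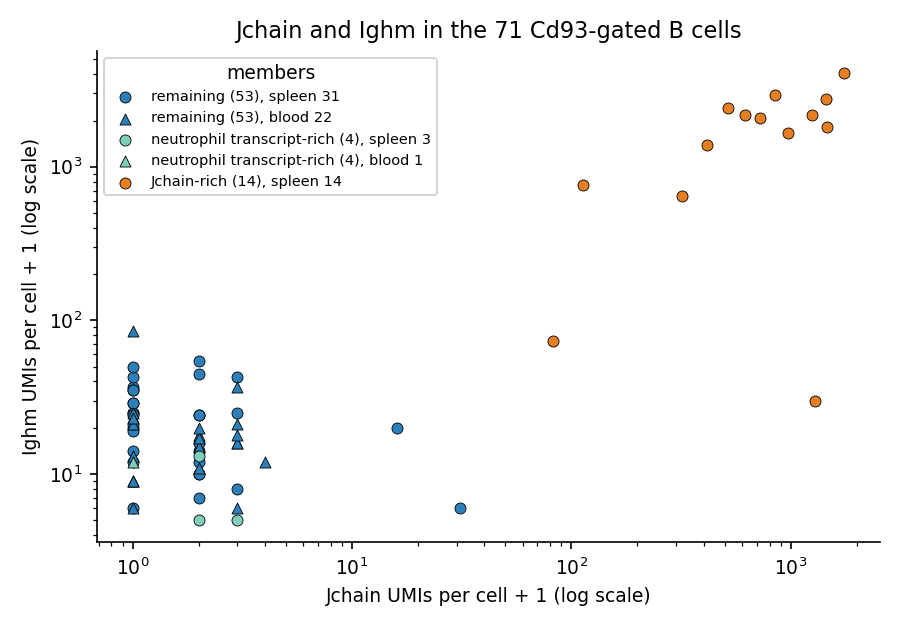
Jchain UMIs plus 1 (x axis, log scale) against Ighm UMIs plus 1 (y axis, log scale) in each of the 71 Cd93-gated B cells, coloured by kind, with circles for spleen and triangles for blood. The 14 Jchain-rich cells, all circles, stand apart at 81 to 1749 Jchain UMIs, while the 53 remaining cells hold at most 30.

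The 4 members rich in neutrophil transcripts had only 3 to 5 B-gate UMIs, at or just above the gate minimum, and 3057 to 37822 UMIs in all. In 2 of them, Elane and Mpo, granule enzymes of neutrophil precursors, stood at 121 and 99 UMIs and at 113 and 9 UMIs. Whether these barcodes held a B cell and another cell together was not tested.

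The remaining 53 members, 31 of spleen and 22 of blood, had the profile of naive B cells in most markers. Their median was 5907 UMIs, with 50 for Igkc, 18 for Ighm and 2 for the IgD gene Ighd, and Ighm led the heavy chain genes in 51 cells. Pax5 had a UMI in 73.6% of them against 63.1% of 2555 Cd93-0 cells of the same kind, and Ighd in 79.2% against 86.6%. Of the transitional markers, Vpreb3 was seen in 54.7% against 46.6%, Cd24a, which encodes the CD24 surface protein, in 56.6% against 57.3%, and Ly6d, a B lineage surface protein, in 90.6% against 94.7%. With every cell thinned to 2000 UMIs, Vpreb3 stood at 28.8% and 28.01% and Cd24a at 26.9% and 30.2%. Fcer2a was seen in 58.5% against 50.2% and Cr2 in 41.5% against 54.2%, and either of these genes in 39 of 53 (73.6%) against 78.2%. Fcer2a also separates later from earlier transitional stages, so these shares do not by themselves place a cell outside the label.

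Some remaining members held genes known from earlier stages. Sox4, a transcription factor of early B cell development, was seen in 15.1% of remaining members against 4.31% of Cd93-0 cells, and in 9.62% against 1.90% after thinning. Myb, which drives progenitor growth, was seen in 13.2% against 3.17%, and in 9.62% against 1.58% after thinning. Any of Myb, Sox4, Vpreb1 (a surrogate light chain gene) and Rag1 (the recombinase) was present in 11 of 53 (20.8%) against 7.63%. Mki67 or Top2a, both genes of dividing cells, were seen in 9 of 53 (17.0%) against 5.99%. Vpreb3 with Cd24a and without Fcer2a or Cr2, a pattern that leaves out later transitional cells with Fcer2a, was found in 7 of 53 (13.2%) against 5.60%. These are shares over cells of several mice, given without a test.

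Single cells stood out among them. A spleen member of vehicle mouse 1, with 18742 UMIs, had 5 Cd93, 12 Vpreb1, 13 Vpreb3, 48 Cd24a and 8 Mki67 UMIs and none of Fcer2a or Cr2. A blood member of treated mouse 3, with 13315 UMIs, had 4 Cd93, 5 Vpreb3 and 13 Cd24a UMIs and none of Fcer2a, Cr2 or Ighd. A spleen member of treated mouse 4 had 7 Rag1 and 4 Sox4 UMIs. Another spleen member, of vehicle mouse 1, had 9 Myb and 15 Sox4 UMIs but only 6 B-gate UMIs and no Vpreb3. A spleen member of treated mouse 3, with 13733 UMIs, had 2 Myb and 2 Sox4 UMIs beside 32 of Mpo and 2 of Elane, and only 4 B-gate UMIs. These cells were picked after their values were seen.

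**Figure D2:**
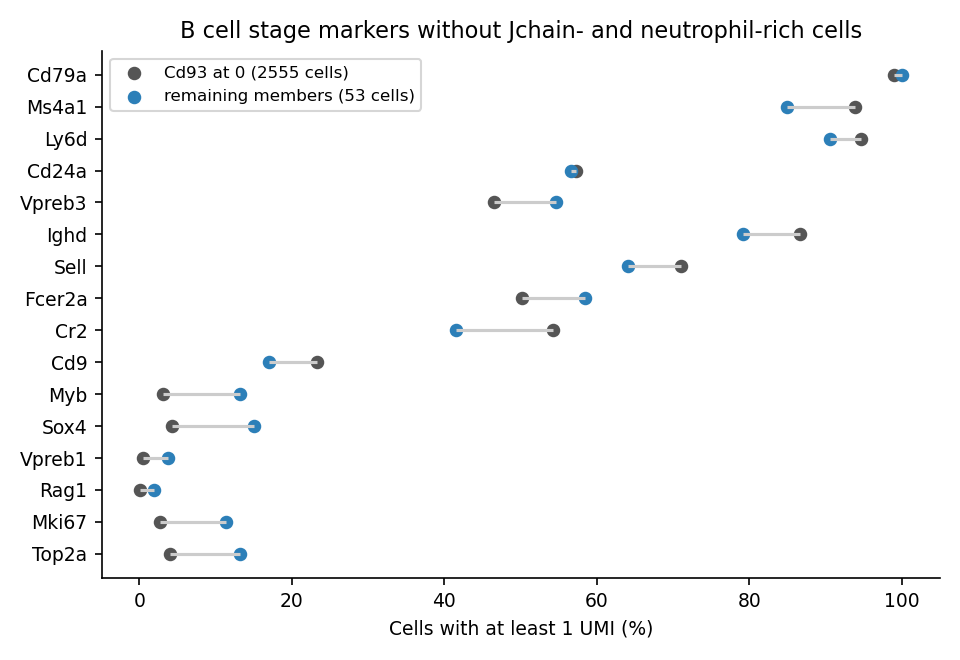
Share of cells (x axis, %) with at least 1 UMI of 16 stage markers (y axis) in the 53 remaining Cd93-gated B cells and the 2555 Cd93-0 B cells of the same kind. Vpreb3, Cd24a and Ly6d lie close together in both, while Sox4 (15.1% and 4.31%), Myb (13.2% and 3.17%) and Mki67 (11.3% and 2.66%) lie farther apart in ratio.

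A Cd93 UMI in a droplet need not come from its cell, so the share of cells with Cd93 was set beside cells that should lack it. Cd93 was seen in 1.81% of 554 T-gated cells (at least 3 Cd3d and Cd3e UMIs, no B-gate UMI; exact 95% interval 0.869 to 3.29%, median 6372.5 UMIs). It was seen in 2.03% of the 2608 B-gated cells outside the Jchain-rich and neutrophil transcript-rich kinds (1.53 to 2.65%, median 5538 UMIs). After thinning the shares were 0.543% and 0.660%. In spleen they were 2.28% of T-gated and 2.19% of these B-gated cells, and in blood 1 of 159 T-gated cells (0.629%) and 1.85%. At this depth the pooled share over the remaining B-gated cells had an interval that overlapped that of T cells, which sets a rough background for the share. No test over mice was made. Of the 10 T-gated cells with Cd93, 5 came from the spleen of treated mouse 4 (7.04% of 71 cells). The other spleens had 0 to 3.08%, so the background leans on 1 mouse. No T-gated cell held more than 1 Cd93 UMI, while 5 of the 53 remaining members held 2 or more and 1 held 5. With only 10 T-gated cells that held Cd93, these highest counts are not comparable. In blood Cd93 stood at 4.63 CPM in remaining B-gated cells (exact 95% interval 3.05 to 6.73) and at 0.929 CPM in T-gated cells (0.024 to 5.18, from 1 UMI), with CPM being UMI counts scaled to a common library total. In spleen it stood at 3.37 CPM (2.36 to 4.67) in remaining B-gated and 3.43 CPM (1.57 to 6.51) in T-gated cells.

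The Jchain-rich cells lay above that share. Cd93 was seen in 14 of 45 of them (31.1%, exact 95% interval 18.2 to 46.6%), at 21.8 CPM against 2.70 CPM in T-gated cells, and in 8.89% after thinning. The 90 Csf1r-gated cells, a myeloid population marked by the receptor for macrophage growth factor, showed it in 20% (12.3 to 29.8%), at 63.4 CPM. Of the 19 B-gated cells rich in neutrophil transcripts, 4 held Cd93 (21.1%). In the ascites library of the series, 6.85% of 774 B-gated cells had a Cd93 UMI against 7.97% of T-gated and 62.7% of Csf1r-gated cells.

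**Figure D3:**
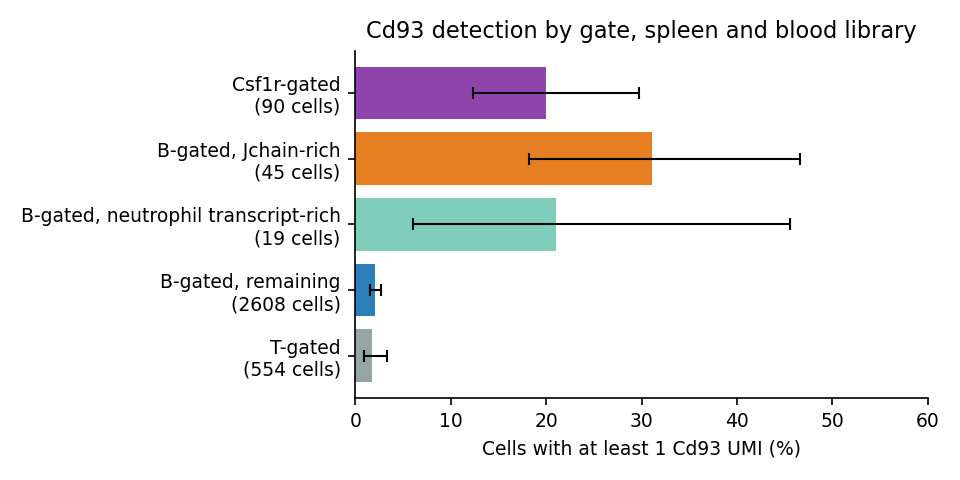
Share of cells (x axis, %) with at least 1 Cd93 UMI in 5 gated populations of spleen and blood (y axis), with exact 95% binomial intervals. T-gated cells (1.81%) and remaining B-gated cells (2.03%) sit together, and Jchain-rich B-gated (31.1%) and Csf1r-gated cells (20%) reach higher.

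The first comparison between arms was the share of B-gated cells that were members. In spleen it was 3.87, 4.05 and 1.92% in vehicle mice 1, 2 and 3 (3.28% ± 1.18, SD, n = 3) and 3.69, 2.69 and 3.09% in treated mice 2, 3 and 4 (3.16% ± 0.504, SD, n = 3). The arms overlapped and the treated minus vehicle difference was -0.119 percentage points (two-sided exact permutation p = 0.8). In blood it was 0, 1.27 and 1.72% in vehicle mice 1, 2 and 3 (0.994% ± 0.890, SD, n = 3) and 3.23, 2.22 and 3.004% in treated mice 2, 3 and 4 (2.82% ± 0.527, SD, n = 3). The 0 in vehicle mouse 1 was 0 of 205 cells, which allows a share of up to 1.46%. The arms did not overlap in blood, where treated mice were higher by 1.82 points on average, and the exact permutation p of 0.1 is the smallest that 3 mice against 3 can give. These blood shares rested on 17 treated and 6 vehicle members. With every cell thinned to 2000 UMIs the blood difference was 0.668 points (exact permutation p = 0.2), and with at least 2 Cd93 UMIs asked of a member it was 0.117 points (exact permutation p = 1). Of blood T-gated cells, Cd93 was seen in 0 of 21, 15 and 26 in treated mice 2, 3 and 4, and in 1 of 40, 0 of 33 and 0 of 24 in vehicle mice 1, 2 and 3.

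The kinds behind these shares differed between arms in spleen. Jchain-rich cells of any Cd93 count made up 5.52, 4.62 and 5.77% of spleen B-gated cells in vehicle mice 1, 2 and 3, and 1.32, 2.02 and 1.72% in treated mice 2, 3 and 4. This was 5.31% ± 0.603 against 1.69% ± 0.352 (SD, n = 3 each), with no overlap. The cut was placed after the data were seen, so no test is given. Among members they were 7 of 17 in vehicle and 7 of 31 in treated spleen. Without the Jchain-rich and neutrophil transcript-rich kinds, members were 1.63% ± 1.57 of vehicle and 2.41% ± 0.908 of treated spleen B-gated cells (SD, n = 3 each), a difference of 0.774 points in the other direction (exact permutation p = 0.6).

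Within mice, members were more frequent in spleen than in blood by 1.31 points, and a two-sided exact sign-flip permutation test over 6 mice gave p = 0.03125, the smallest it allows. All 6 mice showed this direction. All 14 Jchain-rich members were spleen cells, and spleen members had a median of 9706 UMIs against 5168 in blood. Without the Jchain-rich and neutrophil transcript-rich kinds the difference was 0.197 points (exact permutation p = 0.688), and with every cell thinned to 2000 UMIs it was -0.306 points (exact permutation p = 0.313).

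**Figure D4:**
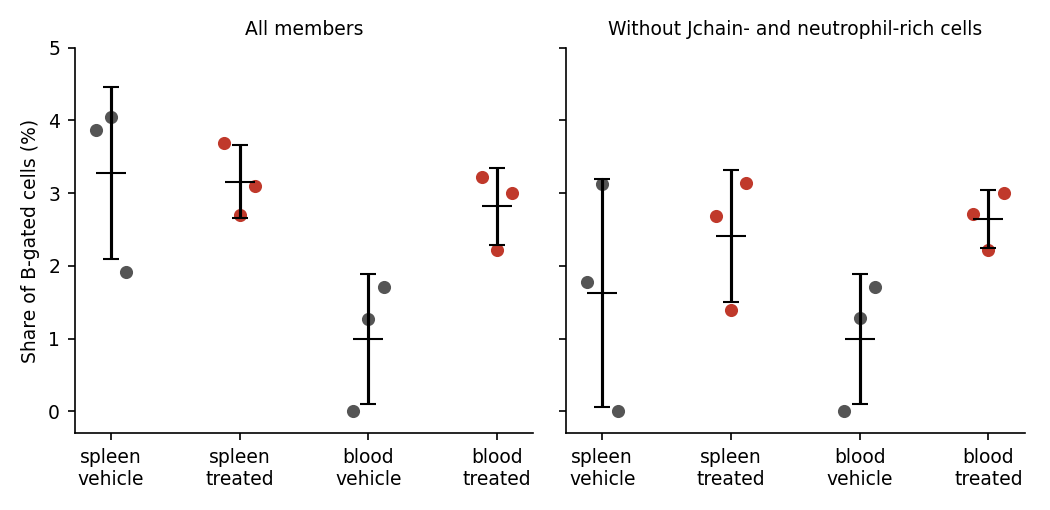
Members as a share of B-gated cells (y axis, %) by tissue and arm (x axis); points are mice and bars the mean ± SD of 3 mice. On the left, with all members, blood of treated mice (2.22 to 3.23%) lies above blood of vehicle mice (0 to 1.72%); on the right, without Jchain-rich and neutrophil transcript-rich cells, spleen and blood reach similar levels.

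Fcer2a, counted after thinning, was seen in 33.3, 50 and 57.1% of blood members of treated mice 2, 3 and 4, and in 0 and 75% of those of vehicle mice 2 and 3. In spleen members of the same 5 mice it was 21.4, 0 and 12.5%, and 0 and 33.3%. The spleen minus blood difference was -29.6 points over 5 mice (exact sign-flip permutation p = 0.125). Vehicle mouse 2 had 0 in both tissues and every other mouse was lower in spleen, so 0.125 was the smallest p these values allowed. The difference was -34.2 points without thinning and -24.1 points with cells thinned to 1000 UMIs. Both had an exact sign-flip permutation p of 0.0625, the smallest that 5 mice can give. Each share rested on 2 to 14 cells. The difference was -2.78 points at no more than 5% mitochondrial UMIs (3 mice, exact permutation p = 1) and -22.2 points without the Jchain-rich and neutrophil transcript-rich kinds (4 mice, exact permutation p = 0.375).

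Genes were compared on counts summed per mouse, tissue and class, for sums of at least 3 cells, since no mouse and tissue had more than 14 members. In spleen, 240 of 5389 genes (4.45%) passed edgeR's quasi-likelihood test at an adjusted p under 0.05 between members and Cd93-0 cells of the same 6 mice, 103 higher (1.91%) and 137 lower (2.54%) in members. Genes of the gate were left out of every test. The median log2 fold change over all genes tested was -0.07. The plasma cell list had a median of 2.25, proliferation 1.11, transitional B 0.15, B cell receptor signalling -0.48, ribosomal protein genes -0.62 and MHC class II -1.33. The count of calls was 29 with each cell thinned to 2000 UMIs and 3 with no more than 5% mitochondrial UMIs.

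The gene with the smallest p among those higher, Txndc11, an endoplasmic reticulum protein of the thioredoxin family, stood at 159, 105 and 33.1 CPM in members of treated mice 2, 3 and 4 and at 63.0, 257 and 38.9 CPM in vehicle mice 1, 2 and 3. The Cd93-0 cells of these mice had 28.9, 20.5, 30.2, 37.0, 51.4 and 32.9 CPM. Members were higher in every mouse, as in either direction for 9.56% of the genes tested, with a log2 fold change of 1.80 (SE 0.34, edgeR adjusted p = 0.00133). Prdm1 was higher by 2.25 (SE 0.47, edgeR adjusted p = 0.00329), at 76.1, 26.3, 16.6, 52.5, 29.7 and 38.9 CPM against 6.79, 5.24, 9.92, 14.2, 14.6 and 9.96 CPM in the same order of mice. It was seen in 12 of 48 spleen members, with no overlap between the classes.

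The signal peptidase subunits Spcs3 and Spcs1, the cargo receptor Tmed3 and the calcium pump Atp2a2 had log2 fold changes of 1.63, 1.43, 1.48 and 1.71. Pim1, a survival kinase, was higher by 1.46 (edgeR adjusted p = 0.00133). Of the plasma cell list, 2 of 5 tested genes were higher, Prdm1 and Irf4, the latter a factor needed for plasma cell formation (1.37). Of 21 B cell transcription factors tested, Irf4 and Pou2af1 were higher. Of 16 heat shock and folding genes, the reticulum chaperone genes Hspa5 (0.92) and Pdia6 (1.22) were higher. None of these genes had an edgeR adjusted p under 0.05 in the remaining members. Txndc11 there had a log2 fold change of 1.38 (edgeR adjusted p = 0.209), Atp2a2 1.32 (0.232) and Pou2af1 0.75 (0.322, against 0.96 with all members). Pim1 had 0.49 (0.859), Spcs3 0.82 (0.728), Spcs1 0.39 (0.951) and Hspa5 0.26 (0.955), and Prdm1 was too low there to be tested.

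Ribosomal protein genes were lower in members for 57 of 86 tested, and 1, Rps27l, a p53 target with a ribosomal name, was higher. Rpl12 had a mean of 2600 against 5196 CPM, a log2 fold change of -0.96 (SE 0.15, edgeR adjusted p = 0.000154). In the remaining members 23 of 86 were lower. Among the B cell receptor signalling genes, the inhibitory receptor gene Cd72 (-1.16) and the signalling scaffold gene Malt1 (-1.20) were lower, and neither passed in the remaining members. Of 10 MHC class II genes, Ciita, the master regulator of the class, and H2-Oa, H2-DMa and H2-DMb2, which load peptides, were lower by 1.19 to 1.42 on the log2 scale.

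S1pr1, the receptor that guides lymphocytes out of tissue, was lower by 2.01 (edgeR adjusted p = 0.0126), with means of 30.7 against 127 CPM, the single call among 15 trafficking genes. Of 8 marginal zone genes, Myof and Notch2, the receptor that directs marginal zone fate, were lower, and of 6 follicular genes none passed. In the remaining members S1pr1 (-1.32, edgeR adjusted p = 0.0508), Notch2 (-1.60, 0.304) and Myof (-1.97, 0.304) did not pass. Of the 4 transitional genes tested, Myb was higher by 2.36 (edgeR adjusted p = 0.0126). Of its 20 member UMIs, 1 cell of vehicle mouse 1 held 9 (45%), and the 2 neutrophil transcript-rich members with Elane and Mpo held 2 and 4. Leaving out vehicle mouse 1 gave 1.49 and an edgeR adjusted p of 0.309, and in the remaining members Myb was too low to be tested. Vpreb3 (-0.21, edgeR adjusted p = 0.844), Cd24a (0.52, 0.344) and Ly6d (-0.22, 0.708) did not pass. Fcer2a (-0.71, 0.301), Cr2 (-1.93, 0.129) and Ighd (-1.59, 0.11) did not pass either. None of 9 genes of the salt-inducible kinases and their CRTC partners passed, nor any of 5 glucocorticoid-responsive genes.

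Transcripts of other cells were lower in members as well. Of 4 erythroid genes, Hba-a1, Hba-a2 and Hbb-bs were lower, Hba-a2 by 3.43 on the log2 scale (SE 0.36, edgeR adjusted p = 2.17e-07). Its CPM was 38.0, 35.0, 33.1, 42.0, 19.8 and 25.9 in members and 409, 326, 538, 96.0, 737 and 511 in Cd93-0 cells. Yet 33.3% of spleen members and 20.9% of Cd93-0 cells had a Hba-a2 UMI. Ccl5, a chemokine of T and natural killer cells, was lower by 2.27, and Gzma, a cytotoxic granule enzyme, by 2.16. Neither the 2 T cell genes nor the 3 neutrophil genes tested passed. The part of other cells' transcripts in the calls was not tested.

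In the remaining members alone, 69 of 5013 genes (1.38%) passed in spleen, 13 higher (0.259%) and 56 lower (1.12%), over 5 mice because vehicle mouse 3 had no remaining member. Of all calls, 46 were made in both fits with the same direction, 19.2% of the 240 and 66.7% of the 69. The higher genes described next were picked after their values were seen. Sox4 was higher by 3.24 (edgeR adjusted p = 1.66e-07), at 45.0, 56.7 and 82.4 CPM in members of treated mice 2, 3 and 4 and at 336 and 0 CPM in vehicle mice 1 and 2, against 1.79 to 19.4 CPM in Cd93-0 cells. Vehicle mouse 2 had none, and 53.6% of the UMIs came from 1 cell of vehicle mouse 1 that had only 6 B-gate UMIs and no Vpreb3. The 2 Sox4 UMIs of treated mouse 3 came from the cell with 32 Mpo UMIs and 4 B-gate UMIs. The 3 of treated mouse 2 came from 1 cell, so the CPM values per mouse rest on few cells, some of uncertain B lineage. With all members Sox4 was too low to be tested.

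Serinc5, a membrane protein of the serine incorporator family, was higher by 3.02 (edgeR adjusted p = 5.32e-06) and stood at 29.98, 85.0, 82.4, 18.6 and 88.6 CPM in members against 3.41, 6.97, 6.96, 7.17 and 4.41 CPM. The classes did not overlap, and 8 of 31 members had a UMI against 3.68% of Cd93-0 cells. Mki67 was higher by 2.58 (edgeR adjusted p = 0.000347), at 29.98, 0 and 0 CPM in treated mice 2, 3 and 4 and 149 and 598 CPM in vehicle mice 1 and 2, from 5 of 31 cells. The vehicle UMIs came from 1 cell of mouse 1 (8 UMIs) and 2 cells of mouse 2 (11 and 16 UMIs). The latter 2 cells also held 30 and 15 Jchain UMIs. Of 7 proliferation genes, 3 were higher, Mki67, Top2a (1.99) and Hmgb2 (0.995), and the replication ligase gene Lig1 and the chromatin silencer gene Ezh2 were higher by 2.34 and 1.87.

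The core class II genes were lower in the remaining members, H2-Aa by 0.95, H2-Ab1 by 0.91, H2-Eb1 by 0.88 and the invariant chain gene Cd74 by 0.71 on the log2 scale. These 4 of 10 were other members of the class II list than the 4 called with all members. H2-Aa stood at 2653, 1473, 2751, 988 and 1618 CPM against 2841, 2630, 2685, 2896 and 2864 CPM, so that treated mice 2 and 4 differed little. Cr2 was lower by 1.23 (edgeR adjusted p = 0.0144), and Vpreb3, at 113 to 285 CPM against 113 to 179 CPM, did not pass (0.34, edgeR adjusted p = 0.922). Without the vehicle mouse 1 member that held most Cd93 UMIs, that mouse no longer had 3 cells and 16 of 5032 genes passed, 4 of them higher: Serinc5, Mki67, Cecr2 and Pou2af1. Sox4 was not among them.

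In blood, 42 of 4655 genes (0.902%) passed between members and Cd93-0 cells of 4 mice, 5 higher (0.107%) and 37 lower (0.795%). In the remaining members alone 33 of 4635 (0.712%) passed, 5 higher (0.108%) and 28 lower (0.604%). The median log2 fold change over all genes was -0.29 with edgeR's TMM scaling and -0.05 with DESeq2's size factors, under which 9 passed, 5 higher and 4 lower, while DESeq2's Wald test called 1. So the surplus of lower genes depended on the scaling, and the changes in blood are read against that median. Ccnd2, a cyclin induced on B cell activation, was higher by 1.68 (SE 0.43, edgeR adjusted p = 0.0174). It stood at 336, 637, 110 and 59.95 CPM in members of treated mice 2, 3 and 4 and vehicle mouse 3, against 95.8, 42.3, 85.8 and 46.2 CPM, higher in each of the 4 mice, as in either direction for 12.5% of genes tested. It was seen in 13 of 23 blood members against 17.1% of Cd93-0 cells. Leaving out treated mouse 3 raised its edgeR adjusted p to 0.795.

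The other genes called higher in blood, Stmn1, Rgs1, Il4i1 and Hist1h1b, drew 87.1, 66.7, 58.3 and 85.2% of their member UMIs from 1 cell each. Stmn1, a microtubule regulator of dividing cells, and Hist1h1b, a linker histone, reversed with sums of at least 5 cells, to -0.17 and -0.43. Ribosomal protein genes were lower for 22 of 85 (median -0.45), MHC class II genes for 3 of 10 (Cd74, H2-Ab1 and H2-Eb1, median -0.53) and erythroid genes for 3 of 4, with Hba-a2 lower by 4.84 (edgeR adjusted p = 8.82e-13). Vpreb3 (-0.02, edgeR adjusted p = 0.998), Cd24a (-0.17, 0.988), Ly6d (-0.46, 0.54), Fcer2a (0.14, 0.988) and Cr2 (-1.52, 0.327) did not pass.

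Spleen and blood members of the same 4 mice differed in 4 of 409 genes (0.978%), 2 higher (0.489%) and 2 lower (0.489%) in spleen. Hspa5 was higher in spleen by 2.25 (SE 0.37, edgeR adjusted p = 0.0274), at 666, 990, 497 and 622 CPM against 258, 318, 110 and 180 CPM in blood for treated mice 2, 3 and 4 and vehicle mouse 3. Hsp90b1, another reticulum chaperone, was higher by 2.46 (edgeR adjusted p = 0.0417). Junb, an immediate early transcription factor, was lower in spleen by 1.97 (edgeR adjusted p = 0.00501), at 374, 429, 530 and 246 CPM against 2326, 2427, 2208 and 1918 CPM, and the histone gene H3f3a by 1.24. Each of these 4 had the same direction in all 4 mice, as did 34.5% of the genes tested. Without the Jchain-rich and neutrophil transcript-rich kinds 1 of 350 genes passed (0.286%), Hspa1b, and the edgeR adjusted p was 0.369 for Hspa5, 0.539 for Hsp90b1, 0.191 for Junb and 0.189 for H3f3a.

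Treated and vehicle spleen members differed in 0 of 842 genes with edgeR (0% called, 123 at an unadjusted p under 0.05), while DESeq2 called 19. The smallest edgeR adjusted p was 0.0667. Hspa1a, an inducible heat shock chaperone, had means of 629 CPM in treated and 58.9 CPM in vehicle members (log2 fold change 3.22), and Ralgps2, a signalling regulator, 272 and 60.5 CPM (2.02, edgeR adjusted p = 0.103). Hmgb2, a chromatin protein of dividing cells, had 175 and 1272 CPM (-2.95), Stmn1 16.7 and 495 CPM (-4.60), and H2afz and Nasp, both of chromatin assembly, -2.06 and -2.83. None of 13 heat shock, 4 proliferation or 7 class II genes tested passed. Leaving out vehicle mouse 1 gave 49 calls, 2 higher and 47 lower in treated members, with Camp, Ngp, Chil3, Lyz2 and Elane, genes of neutrophils and their precursors, in the lead.

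Among remaining members, 9 of 690 genes (1.3%) passed between arms in spleen. Malat1 and Hspa1b were higher in treated members (0.29%), and Hist1h2ae, Pclaf, Hist1h4d, Tuba1b, Hist1h1b, Ighg2b and Txn1 lower (1.01%). The vehicle arm then rested on 3 cells of mouse 1 and 5 of mouse 2. For Ighg2b, 1 cell of vehicle mouse 2 held 169 UMIs and the other 7 vehicle cells 0 to 41, and that cell also held 30 Jchain, 5 Xbp1, 11 Mki67 and 3 B-gate UMIs. Dividing cells were few: Hmgb2 had 58 UMIs in the 3 cells and 67 in the 5, and Mki67 had 8 and 27 UMIs, against 2, 0 and 0 Mki67 UMIs in treated mice 2, 3 and 4.

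Summed over both tissues, treated and vehicle members differed in 0 of 953 genes (0% called, 104 at an unadjusted p under 0.05), and DESeq2 called 9. Hspa1a stood at 305, 373 and 683 CPM in treated mice 2, 3 and 4 and at 52.5, 54.3 and 74.6 CPM in vehicle mice 1, 2 and 3, a log2 fold change of 2.73 (edgeR adjusted p = 0.0587). Hspa1b had 2.25 (edgeR adjusted p = 0.194). Ms4a4c, an MS4A family membrane protein, had 173, 100 and 280 CPM against 10.5, 36.2 and 31.98 CPM (2.59), and Fcmr, the IgM receptor, 1.85.

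Pcna, the replication clamp, had 56.0, 50.2 and 72.5 CPM against 199, 208 and 128 CPM (-1.66), and Siva1 20.4, 35.9 and 31.1 CPM against 126, 136 and 139 CPM (-2.28). B930036N10Rik, Prdx6, a peroxidase, and Tagln2, an actin-binding protein, had -1.86, -2.16 and -1.79. The arms did not overlap in any of these, as in 13.1% of the genes tested. Without vehicle mouse 1 there were 42 calls. The kinds were uneven between these sums. Remaining members were 15 of 20, 8 of 12 and 16 of 16 in treated mice 2, 3 and 4. In vehicle mice 1, 2 and 3 they were 3 of 7, 7 of 9 and 4 of 7. The 3 spleen members of vehicle mouse 3, none of them remaining, held 77168 of its 93929 member UMIs. Without the Jchain-rich and neutrophil transcript-rich kinds, 0 of 640 genes passed (0% called, 30 at an unadjusted p under 0.05).

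The last comparison asked whether members responded to treatment unlike Cd93-0 cells of the same spleens. The interaction of treatment and class passed for 9 of 5389 genes (0.167%), 6 higher (0.111%) and 3 lower (0.0557%), with 417 at an unadjusted p under 0.05. DESeq2 called 1. Hspa1a had 355, 455 and 1077 CPM in members of treated mice 2, 3 and 4 and 52.5, 59.4 and 64.8 CPM in vehicle mice 1, 2 and 3, against 824, 883 and 1089 CPM and 611, 508 and 653 CPM in Cd93-0 cells. The treated minus vehicle log2 difference was thus larger in members by 2.65 (edgeR adjusted p = 0.000532), and vehicle members lay below every other group.

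Ighd showed 292, 123 and 282 CPM in treated and 20.99, 79.2 and 25.9 CPM in vehicle members, against 426, 321 and 337 CPM and 377, 416 and 371 CPM in Cd93-0 cells, a difference of 2.60 (edgeR adjusted p = 0.0128). Stmn1 had 6.34, 43.8 and 0 CPM in treated and 787, 465 and 233 CPM in vehicle members, a difference of -3.86 (edgeR adjusted p = 0.0128). Dut, a nucleotide enzyme of replicating cells, had -2.78 (edgeR adjusted p = 0.0492). The kinds moved with these results, since Jchain-rich cells were 7 of 17 vehicle and 7 of 31 treated spleen members. Without the Jchain-rich and neutrophil transcript-rich kinds, 21 of 5013 genes (0.419%) passed, 7 higher (0.14%) and 14 lower (0.279%), 4 of them among the 9, or 44.4% of the 9 and 19.0% of the 21. Ighd (edgeR adjusted p = 0.0335) passed there and Hspa1a (2.06, edgeR adjusted p = 0.134) did not. The vehicle members of that fit were 3 cells of mouse 1, which held 0 Ighd UMIs, and 5 cells of mouse 2. The latter included the cell with 169 Ighg2b UMIs, so the Ighd result rests on few and mixed vehicle cells.

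**Figure D5:**
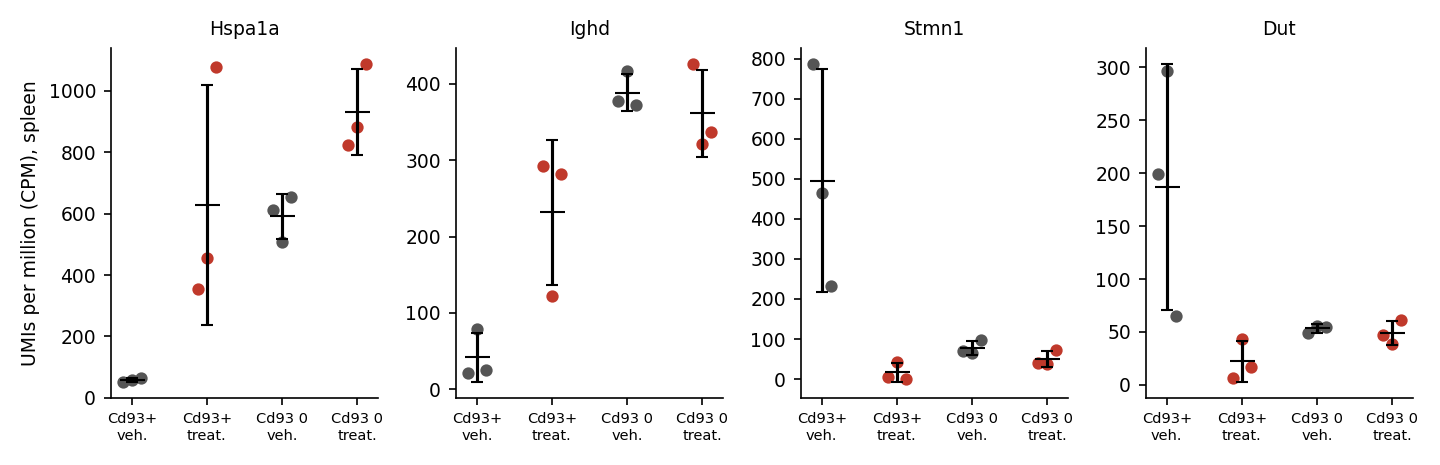
Level (y axis, CPM) of Hspa1a, Ighd, Stmn1 and Dut in spleen members and spleen Cd93-0 B cells by arm (x axis); points are mice and bars the mean ± SD of 3 mice. Vehicle members are low for Hspa1a (52.5 to 64.8 CPM) and Ighd (20.99 to 79.2 CPM) and high for Stmn1 (233 to 787 CPM), while Cd93-0 cells of both arms lie near each other for Ighd.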

How the data were processed

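Gene and hashtag UMI counts were deposited by the authors as matrices made with Cell Ranger 6.1.1 on mm10, per the submitters' processing notes, and are raw counts; annotation version and mapping settings are not given in the sources used here. Hashtags were mapped to mouse, arm and tissue with the deposited hashtag notes. The members, the lists of genes and the rule by which genes are named were all chosen with earlier results of these data known. Counts were summed per mouse, tissue and class. The planned minimum of 20 cells left no gene test, so at least 3 cells were required, chosen after seeing the data, as were the cuts for Jchain-rich and neutrophil transcript-rich cells.

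Genes were tested two-sided with edgeR 4.0.16 in R 4.3.3 (robust quasi-likelihood fit, TMM, filterByExpr, Benjamini-Hochberg over all genes tested, threshold 0.05), with the mouse as block where classes or tissues of the same mice were compared. The pairing of classes comes from the hashtag notes. The pairing of spleen with blood takes hashtags of the same arm and mouse number as 1 animal, which the notes do not say outright. The gate's genes were not tested. Shares were compared with exact permutation tests over mice (SciPy 1.17.1). With counts simulated for the 5389 genes of the spleen class comparison, 22% of genes changed 2-fold and 83% of genes changed 4-fold were recovered by edgeR, and 4.55% of calls were false. For the 953 genes of the treatment comparison over both tissues it recovered 17% and 82%, with 2.94% false calls. The simulation drew negative binomial counts around 1 mean per gene, without differences between mice or single cells that hold most UMIs of a gene. Its rates therefore need not hold for sums of few cells as used here.

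Named genes were the 10 smallest p in each direction among calls whose mean logCPM was 4 or more and whose direction was the same in every mouse (no overlap between arms), up to 4 more per gene list, a standing list of B cell genes, and the 5 smallest p in each direction where none passed; others named were picked after their values were seen. Alternatives were DESeq2 1.42.0, other filters, hashtag and mitochondrial limits, depth, the kinds left out, blocks and leaving out each mouse. Doublets were handled by the hashtag rule alone; no caller was run, and doublets within 1 hashtag stay in. Mice of 1 arm are taken as separate animals. A result for 1 gene is not reported here.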

Additional observations from a re-analysis of the deposited data

Results flagged for a closer look

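Treatment effects differed between spleen members and Cd93-0 cells of the same spleens in 9 genes by the edgeR interaction test; values are differences of log2 fold changes, members minus Cd93-0 cells. Of these, 6 were higher in members. They were Hspa1a (2.65, edgeR adjusted p = 0.000532), Iglc1, a lambda light chain gene (1.98, 0.0028), Ighd (2.60, 0.0128), Btg1, an antiproliferative gene (1.87, 0.0389), and the unnamed loci Gm31243 (3.68, 0.0389) and A630001G21Rik (3.27, 0.0435).

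Lower were Stmn1 (-3.86, edgeR adjusted p = 0.0128), Dut (-2.78, 0.0492) and Mcm3, a subunit of the replication helicase (-9.44, 0.0211). Mcm3 had 126, 148 and 38.9 CPM in members of vehicle mice 1, 2 and 3 and 0 in members of all 3 treated mice, so its fitted value depends on the prior count and is no bound. Cd93-0 cells had 13.1 to 19.9 CPM.

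Hspa1a alone had a DESeq2 adjusted p under 0.05 (0.0367); for Iglc1 it was 0.345. The members of vehicle spleens numbered 17 and those of treated spleens 31.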

How the results depend on the processing

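Counts of genes called at an edgeR adjusted p under 0.05 moved with most settings. For members against Cd93-0 cells in spleen (240), they were 576 without a low-count filter, 3 at no more than 5% mitochondrial UMIs (27 members in both tissues), 86 with hashtags of at least 90%, 157 without members above the 95th percentile of UMIs, 29 after thinning to 2000 UMIs, 130 with at least 5 cells, 69 without the Jchain-rich and neutrophil transcript-rich kinds, 16 also without the member with most Cd93 UMIs, 0 of 417 with Jchain-rich cells alone (11 at an unadjusted p under 0.05), and 115 to 326 without 1 mouse (115 without treated mouse 3, 129 without vehicle mouse 2, 130 without vehicle mouse 3). In blood (42) they were 9 with DESeq2 size factors, 1 with DESeq2, 125 without a filter, 77 thinned, 6 with at least 5 cells and 6 to 71 without 1 mouse (6 without treated mouse 2, 71 without treated mouse 4). Between tissues (4) they were 19 with DESeq2, 109 without a filter, 1 with hashtags of at least 90%, 7 without the deepest members, 1 without the kinds, also without the top Cd93 member, 0 with at least 5 cells and 1 to 32 without 1 mouse (32 without treated mouse 4). Between arms in spleen (0) they were 19 with DESeq2, 95 without a filter, 9 without the kinds and 0 to 49 without 1 mouse (49 without vehicle mouse 1). Over both tissues (0) they were 9 with DESeq2, 103 without a filter and 0 to 42 without 1 mouse (42 without vehicle mouse 1). For the interaction (9) they were 1 with DESeq2, 23 without a filter, 21 without the kinds, 4 with at least 5 cells and 4 to 32 without 1 mouse (32 without vehicle mouse 1).

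Arms share only the numbers 2 and 3, which the labels do not tie together. With that number as a replicate block, the share difference between arms was 0.209 points in spleen and 1.23 in blood, and 2 genes were called over both tissues. With no replicate block, 9 genes were called between tissues and the spleen minus blood share difference of 1.31 had an exact permutation p of 0.0476.

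The treated minus vehicle share in spleen (-0.119 points) reversed to 0.425 with hashtags of at least 90%, 0.267 thinned, 0.774 without the kinds and 0.387 of all kept cells, and ran from -0.797 to 0.265 without 1 mouse (0.114 without treated mouse 3, 0.175 without vehicle mouse 1). The blood difference (1.82) was 5.93 at no more than 5% mitochondrial UMIs, 0.117 with at least 2 Cd93 UMIs, 0.668 thinned and 1.33 to 2.18 without 1 mouse. The spleen minus blood share lost its call at no more than 5% mitochondrial UMIs (4.93), hashtags of at least 90% (0.658), at least 2 Cd93 UMIs (0.158), without the kinds (0.197) and of all kept cells (0.218), reversed when thinned (-0.306), and ran from 0.803 to 1.56 without 1 mouse.

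Named genes that reversed in spleen, most of them not called there, were Ccl5 (0.28), Cd24a (-0.031), Hmgb2 (-0.15) and Vpreb3 (0.50) thinned; Hmgb2 (-0.72), Ly6d (0.40) and Top2a (-0.074) at no more than 5% mitochondrial UMIs; H2-Eb1 (0.27), Ly6d (0.14), Spcs1 (-0.39), Spcs3 (-0.35) and Txndc11 (-0.26) in Jchain-rich cells alone; Cd24a (-0.33) and Vpreb3 (0.41) also without the top Cd93 member; and Vpreb3 with hashtags of at least 90% (0.29), without the deepest members (0.11) and without the kinds (0.34). In blood they were Cd24a (0.087 with DESeq2 size factors, 0.023 with DESeq2, -0.69 to 0.070 without 1 mouse), Fcer2a (-0.17 without a filter, -0.027 to 0.30 without 1 mouse), Hist1h1b (-0.43) and Stmn1 (-0.17) with at least 5 cells, and Vpreb3 (0.23 with size factors, 0.14 with DESeq2, 0.11 with hashtags of at least 90%, 0.046 without the kinds, also without the top Cd93 member, 0.19 with at least 5 cells, 0.012 with no replicate block, -0.30 to 0.41 without 1 mouse). In the interaction they were Btg1 (-0.011 at no more than 5% mitochondrial UMIs) and Iglc1 (-0.064 with hashtags of at least 90%). The cause was not tested.

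Not run for too few cells were minimums of 10, 20 and 50 cells and at least 2 Cd93 UMIs for genes, 5% mitochondrial UMIs in blood and between tissues, treatment in blood, and treatment by tissue. Depth limits all values, since most members hold 1 Cd93 UMI.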
